A study of Homo sapiens with 36 samples.

Results

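TMEM165 and 4 of its neighbours on chromosome 4q12 were followed in cultured human neural stem cells (hNSC). In these cells the transcription factors MEIS1 or MEIS2 had been raised or targeted for knockout. The 5 genes are SRD5A3, TMEM165, CLOCK, NMU and EXOC1, taken from the 28516 genes of the deposited count table, and all 5 were among the 19689 genes with at least 10 counts summed over the 36 libraries. They were selected on the measured difference of TMEM165 in the MEIS2 contrast, which was among the clearest of all genes, and on the position of the other 4 beside it. Their values in the contrasts that hold MEIS2 libraries are therefore given as a description, without a test.

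The study manipulated both paralogs in commercially supplied hNSC from Gibco, and 6 libraries were made for each of 6 conditions. In MEIS1-OE and MEIS2-OE, lentiviruses delivered 1 activating guide RNA together with a Cas9 that does not cut, dCas9-VP64, and a helper that binds the guide and recruits further activators. For MEIS1-KO and MEIS2-KO, lentiCRISPRv2 delivered cutting Cas9 with 2 guides against the gene, mixed in equal parts. In ctrl-OE and ctrl-KO the activation or the cutting system came with non-targeting guides, and all cells were harvested 48 h after infection. Each library is thus a pool of transduced cells and not a clone. The labels do not say that the 6 libraries of a condition came from separate cultures, so p-values measure the spread between these samples, which may be technical. Because these are bulk samples, fewer cells of a type and less RNA per cell cannot be told apart.

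Of the 5 genes, TMEM165 and SRD5A3 both serve protein glycosylation, and the others act elsewhere. TMEM165 is a multispanning protein of the Golgi that exchanges manganese and calcium for protons, and its loss causes a congenital disorder of glycosylation. SRD5A3 acts earlier in the same broad pathway, in the endoplasmic reticulum: it is needed to make dolichol, the lipid on which N-glycans are assembled, and its loss also causes a congenital disorder of glycosylation. CLOCK is a bHLH-PAS transcription factor that pairs with BMAL1 (ARNTL) on E-box sequences and drives the circadian feedback loop. NMU encodes the neuropeptide neuromedin U, and EXOC1 is a subunit of the exocyst, which tethers secretory vesicles to the plasma membrane.

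In GRCh37, which is the hg19 build of the counts, the genes lie in this order. SRD5A3 spans chr4:56212380-56239267 on the plus strand, and the start of its canonical transcript lies at -49.7 kb from that of TMEM165. TMEM165 spans chr4:56262124-56319564 on the plus strand. CLOCK spans chr4:56294070-56413076 on the minus strand and NMU spans chr4:56461396-56502865, also on the minus strand. EXOC1 spans chr4:56719814-56771252 on the plus strand, with its start 457.7 kb beyond that of TMEM165. TMEM165 and CLOCK overlap tail to tail by 25495 bases, but their exons share 76 bases over all annotated transcripts, and the canonical transcripts share 0 and end 1727 bases apart. The sources do not state whether the counting used strand, so reads from those 76 bases may not be separable between both genes.

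The sequences before the starts of TMEM165 and SRD5A3 are shown because these were the 2 members with raised counts in MEIS2-OE. They are the 250 bases upstream of the canonical start in GRCh37, 5′ to 3′ on the gene's strand, at chr4:56261874-56262123 and chr4:56212159-56212408. Capitals mark matches to 4 motifs searched on both strands: TGACAG (a MEIS consensus), CACGTG (the E-box bound by CLOCK and its partner), CCAAT and GGGCGG (a GC box).
TMEM165: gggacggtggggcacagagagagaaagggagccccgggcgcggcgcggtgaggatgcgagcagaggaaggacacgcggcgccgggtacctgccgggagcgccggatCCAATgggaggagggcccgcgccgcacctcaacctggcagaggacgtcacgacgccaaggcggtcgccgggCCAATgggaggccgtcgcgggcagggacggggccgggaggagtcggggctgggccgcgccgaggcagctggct
SRD5A3: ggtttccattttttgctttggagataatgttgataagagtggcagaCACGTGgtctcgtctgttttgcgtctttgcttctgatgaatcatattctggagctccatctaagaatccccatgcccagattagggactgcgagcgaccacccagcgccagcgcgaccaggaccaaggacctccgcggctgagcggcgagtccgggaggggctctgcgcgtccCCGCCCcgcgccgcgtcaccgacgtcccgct
TMEM165 held 2 CCAAT matches, and SRD5A3 held 1 E-box and 1 GC box. TGACAG was in none of the 5 promoters, against 10.7% of the 15592 promoters of tested protein-coding genes. CACGTG was in 8.5% of them, CCAAT in 34% and GGGCGG in 67.6%. The window of CLOCK held none of the 4 motifs, that of NMU held 2 GC boxes, and that of EXOC1 held 2 CCAAT and 2 GC boxes. The TMEM165 window was 75.2% G and C and the SRD5A3 window 59.6%, against a median of 65.2% over all promoters. The motifs were picked with the sequences in view. A match is a string of letters and not evidence of binding. The lack of a match in 250 bases is not evidence against binding elsewhere at the gene.

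The library totals lay between 15429985 and 22940493 counts, so that each member was counted between 186 and 3868 times in a library. The targeted genes moved as labelled. MEIS2 averaged 824 ± 20 CPM (normalised counts scaled to a common library size; SD, n = 6) in MEIS2-OE against 22.6 ± 1.23 in ctrl-OE, and 12.1 ± 0.936 in MEIS2-KO against 25.8 ± 1.58 in ctrl-KO. MEIS1 averaged 310.2 ± 14.3 CPM in MEIS1-OE against 17.8 ± 1.1, and 8.96 ± 1.74 in MEIS1-KO against 25.7 ± 1.66. The knockouts therefore kept a part of the target's mRNA. All 8 neural stem cell markers, SOX2 and NES among them, averaged at least 1 CPM, as did 4 of 7 neuronal, 1 of 4 astrocyte, 1 of 5 oligodendrocyte, 1 of 3 pluripotent and 3 of 4 mesenchymal markers. The common library size was adjusted by the trimmed mean of M-values (TMM).

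TMEM165 was level in 5 conditions and about 4 times higher in the sixth. In ctrl-OE the lowest library had 39.5 CPM, the median was 41.1 and the highest had 43.6. In MEIS2-OE the lowest had 160.0 CPM, the median was 173 and the highest had 179.8, which corresponds to 3244 to 3868 reads per library. No MEIS2-OE library came near the others, and the highest value outside this condition was 46.9 CPM, in MEIS1-KO. The means in order were 171 ± 7.86 CPM in MEIS2-OE, 43.7 ± 2.37 in MEIS1-KO, 42.8 ± 1.78 in MEIS2-KO, 42.0 ± 2.45 in ctrl-KO, 41.4 ± 1.39 in ctrl-OE and 40.9 ± 2.27 in MEIS1-OE (SD, n = 6 each). Below MEIS2-OE, every pair of neighbours in this order overlapped and differed by less than 1 SD. The fitted log2 fold change in MEIS2-OE against ctrl-OE was 2.05 (SE 0.05), or 4.14-fold with a 95% interval of 3.90 to 4.41. Summed markers overlapped between MEIS2-OE and ctrl-OE, at 3117 to 3807 and 3239 to 3954 CPM for neural stem cells and 405 to 484.5 and 409 to 569.8 CPM for neurons. In MEIS2-KO, TMEM165 was near its control level, with a log2 fold change of 0.03 (SE 0.05) against ctrl-KO. The interval was -0.06 to 0.12 on that scale. MEIS2 mRNA in this knockout remained at 12.1 CPM against 25.8 in ctrl-KO. The paper could not detect the effect of the knockout on MEIS2 protein, so how much of the protein was lost is not known. Whether TMEM165 depends on MEIS2 was thus not tested by a known loss of the protein.

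SRD5A3 was raised in the same condition, by a smaller amount. Its libraries ran from 30.8 CPM through a median of 31.8 to 35.2 in ctrl-OE, and from 55.2 through 58.0 to 63.3 in MEIS2-OE. The 6 MEIS2-OE libraries lay above all 30 others, whose highest value was 36.8 CPM in ctrl-KO. The means were 58.9 ± 3.71 CPM in MEIS2-OE, 34.1 ± 1.64 in ctrl-KO, 32.8 ± 1.20 in MEIS1-KO, 32.4 ± 1.68 in ctrl-OE, 31.8 ± 1.61 in MEIS2-KO and 30.3 ± 1.29 in MEIS1-OE. Again the neighbours below MEIS2-OE overlapped and differed by less than 1 SD. The log2 fold change in MEIS2-OE was 0.86 (SE 0.05), or 1.82-fold (1.71 to 1.94). In MEIS2-KO it was -0.10 (SE 0.05), with 3 of 6 libraries below every ctrl-KO library. Its antisense neighbour SRD5A3-AS1, which shares 1082 exonic bases with it, had 0 to 6 counts in each library of ctrl-OE and MEIS2-OE, against 662 to 1345 counts for SRD5A3.

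**Figure D1:**
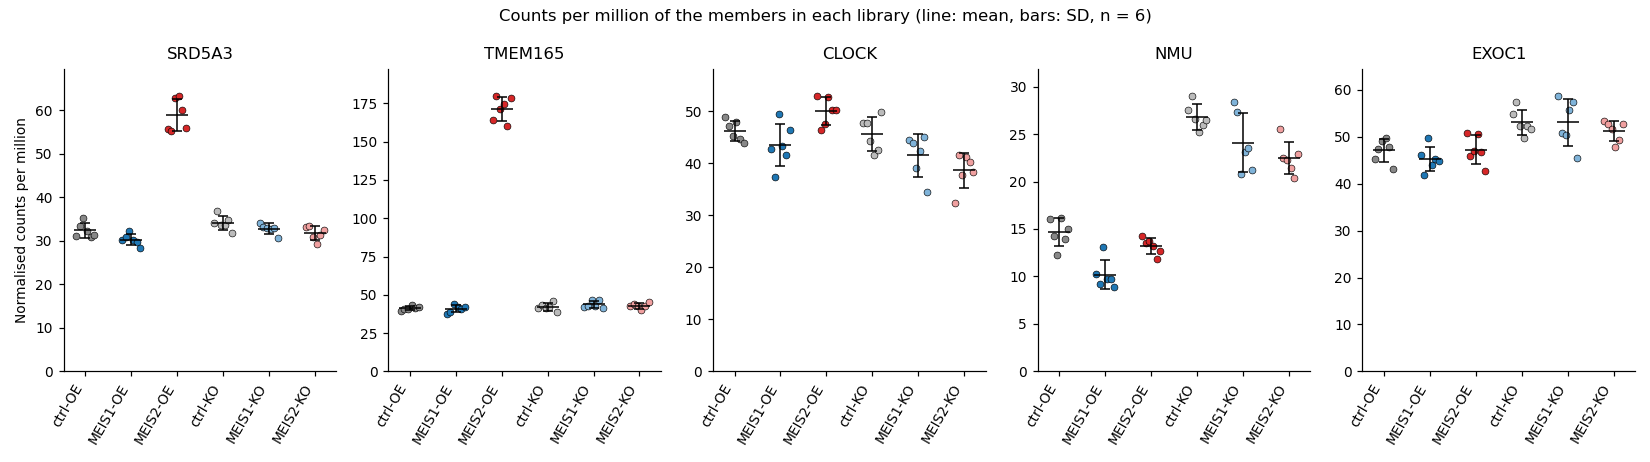
Normalised CPM (y axis, from 0) of the 5 members in each of the 36 libraries, by condition (x axis). Points are libraries, lines are means and bars are SD (n = 6); TMEM165 and SRD5A3 stand apart in MEIS2-OE at 171 and 58.9 CPM, and NMU is lower in the 3 activation conditions than in the 3 knockout conditions.

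CLOCK, which lies tail to tail with TMEM165, did not share its rise. CLOCK libraries ran from 43.8 CPM through 46.1 to 48.8 in ctrl-OE, and from 46.3 through 50.2 to 52.9 in MEIS2-OE, so the ranges overlapped and 4 of 6 MEIS2-OE libraries lay above all controls. The log2 fold change was 0.11 (SE 0.06), or 8.05% higher. In MEIS2-KO its level was 38.6 ± 3.36 CPM against 45.6 ± 3.32 in ctrl-KO, a log2 fold change of -0.24 (SE 0.07). The lowest, median and highest libraries were 32.4, 39.3 and 41.6 CPM in MEIS2-KO and 41.6, 46.0 and 49.9 in ctrl-KO, so the ranges met at their edges without crossing. MEIS1-KO lay between them at 41.5 ± 4.07 CPM. Summed neural stem cell markers moved with this comparison, at 4830 to 5758 CPM in MEIS2-KO and 4182 to 4771 in ctrl-KO, and their part in the CLOCK values was not tested. The other 5 marker lists overlapped between these conditions. In order the means were 50 ± 2.7 CPM in MEIS2-OE, 46.2 ± 1.98 in ctrl-OE, 45.6 in ctrl-KO, 43.5 ± 4.12 in MEIS1-OE, 41.5 in MEIS1-KO and 38.6 in MEIS2-KO. All neighbours in this order overlapped, and the step between MEIS2-OE and ctrl-OE alone was larger than 1 SD.

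NMU differed most between the 2 CRISPR systems. Its libraries ran from 12.3 CPM through a median of 14.6 to 16.2 in ctrl-OE and from 25.2 through 26.5 to 29.0 in ctrl-KO, with no overlap. The control comparison had no part in choosing the members. NMU was 0.546-fold as high in ctrl-OE as in ctrl-KO (log2 -0.87, SE 0.08, adjusted p = 6.76e-12, quasi-likelihood F test in edgeR, adjusted over all tested genes). EXOC1 was also lower in ctrl-OE, at 47.1 ± 2.47 against 53.1 ± 2.66 CPM, with all 6 libraries below those of ctrl-KO (log2 -0.17, SE 0.05, adjusted p = 0.00804 in edgeR). These were the 2 of 5 members called lower, and 0 were called higher. The background was high, since 23.9% of all tested genes were called lower and 27.5% higher between the controls. TMEM165 (log2 -0.02, SE 0.05, adjusted p = 0.708), SRD5A3 (-0.07, SE 0.05, 0.193) and CLOCK (0.02, SE 0.06, 0.837) did not pass the test in edgeR. Of 6 summed marker lists, 4 were also lower in ctrl-OE with no overlap. Neuronal markers had 409 to 569.8 CPM in ctrl-OE and 883 to 916 in ctrl-KO, and neural stem cell markers 3239 to 3954 and 4182 to 4771. Pluripotent markers had 297.5 to 340.6 and 424.5 to 500.7 CPM, and astrocyte markers 2.23 to 2.84 and 3.93 to 5.4. The oligodendrocyte and mesenchymal lists overlapped between the controls. The part of these shifts in the NMU difference was not tested.

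With activation of MEIS1, NMU was lower than in ctrl-OE. The lowest, median and highest libraries had 8.87, 9.75 and 13.1 CPM in MEIS1-OE, and 5 of 6 lay below every ctrl-OE library. The mean was 10.2 ± 1.51 CPM against 14.7 ± 1.46, a log2 fold change of -0.53 (SE 0.08, edgeR adjusted p = 1.48e-05). NMU was the 1 of 5 members called lower in MEIS1-OE, where 3.58% of all tested genes were called lower and 5.52% higher, and no member was called higher. SRD5A3 had a log2 fold change of -0.10 (SE 0.05, adjusted p = 0.247 in edgeR), with an unadjusted p under 0.05. TMEM165 (-0.02, adjusted p = 0.896), CLOCK (-0.09, 0.509) and EXOC1 (-0.06, 0.638) did not pass in edgeR either. For TMEM165 the 95% interval of this comparison was 0.929 to 1.05-fold. Summed neuronal markers overlapped between both groups, at 452 to 513 CPM in MEIS1-OE and 409 to 569.8 in ctrl-OE. In MEIS2-OE, NMU had 11.8 CPM in its lowest library, 13.4 at the median and 14.3 in the highest, and its log2 fold change was -0.15 (SE 0.08). Both activation conditions were compared with the same ctrl-OE libraries.

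Knockout of MEIS1 changed none of the 5 members by the adjusted test. In MEIS1-KO 0 of 5 were called by edgeR and 0 by DESeq2. With either tool CLOCK alone had an unadjusted p under 0.05, and its log2 fold change was -0.14 (SE 0.07, adjusted p = 0.406 in edgeR). In this comparison 1.03% of all tested genes were called higher and 0.432% lower. NMU had 24.1 ± 3.13 CPM against 26.8 ± 1.33 (log2 -0.16, SE 0.08, edgeR adjusted p = 0.446), with 4 of 6 libraries below all controls. The log2 fold changes of the other members were 0.06 for TMEM165, -0.06 for SRD5A3 and less than 0.01 in size for EXOC1 (edgeR adjusted p = 0.725, 0.737 and 1). The effect of MEIS1 on NMU in activation minus that in knockout was -0.37 (SE 0.12, adjusted p = 0.0653 in edgeR), and this difference did not pass the threshold.

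In MEIS2-KO, NMU had 20.4, 22.4 and 25.5 CPM in its lowest, median and highest libraries, and 5 of 6 lay below every ctrl-KO library (log2 -0.25, SE 0.08). A listed candidate off-target site of 1 of the knockout guides lies in the same interval of the chromosome and is shown for that reason. Of 563 listed candidate sites of the 4 knockout guides, 2 were found in GRCh37 within 2 Mb of the TMEM165 start, both of the guide MEIS2-g2. The one at chr4:56612691-56612713, on the minus strand, lies outside protein-coding genes, 110.2 kb from the NMU start and 107.1 kb from that of EXOC1. The guide and the site are given 5′ to 3′, with the last bases being the PAM. Capitals mark the bases of the site that differ from the 20 bases of the guide, and differences in the PAM are not marked.
MEIS2-g2: cccactcagcaggcaccccaggg
site between NMU and EXOC1: cTcactGagTaggcaAcccatgg
The 4 differences are C2T, C7G, C10T and C16A, counted from 1 at the 5′ end of the guide. The second site, at chr4:55420989-55421011 on the plus strand, also has 4 differences and lies 103.1 kb from the KIT start. Whether these sites were cut was not tested. EXOC1 in MEIS2-KO, on the other side of the site, had a log2 fold change of -0.05 (SE 0.05), with 47.8, 52.3 and 53.3 CPM in its lowest, median and highest libraries against 49.8, 52.3 and 57.4 in ctrl-KO.

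EXOC1 was the steadiest member. Its means were 53.1 ± 5.02 CPM in MEIS1-KO, 53.1 ± 2.66 in ctrl-KO, 51.3 ± 2.19 in MEIS2-KO, 47.3 ± 3.07 in MEIS2-OE, 47.1 ± 2.47 in ctrl-OE and 45.3 ± 2.61 in MEIS1-OE. The step from the 3 knockout to the 3 activation conditions was the only one between neighbours that was larger than 1 SD. NMU had the same order of systems, with means of 26.8, 24.1 and 22.5 CPM in ctrl-KO, MEIS1-KO and MEIS2-KO, and 14.7, 13.2 and 10.2 in ctrl-OE, MEIS2-OE and MEIS1-OE. MEIS2-KO and ctrl-OE were the only neighbours in the NMU order whose libraries did not overlap.

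Levels can be compared between genes only per length of transcript. Per kb of the canonical transcript, and over all 36 libraries, TMEM165 averaged 33.0 CPM per kb, NMU 22.8, EXOC1 13.8, SRD5A3 9.04 and CLOCK 4.23. TMEM165 had the highest value of the 5 in all 18 activation libraries and NMU in all 18 knockout libraries, while CLOCK had the lowest in all 36. The highest library was 4.77 times the lowest for TMEM165, 3.27 times for NMU, 2.23 times for SRD5A3, 1.63 times for CLOCK and 1.40 times for EXOC1.

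Along the chromosome, TMEM165 and SRD5A3 had the largest rises in MEIS2-OE among the genes at 1 CPM or more, and the flanking gene KIT came next. The flanking genes were all other genes that could be given a position and had a start within 2 Mb of that of TMEM165. Of these, 25 were in the table, 19 could be tested and 12 had a mean of at least 1 CPM. Their highest log2 fold change in MEIS2-OE among these 12 was 0.56 and their median was 0.01. Over all tested genes, also those under 1 CPM, the median was -0.009. KDR, the main VEGF receptor, is the nearest gene at 1 CPM or more on the SRD5A3 side, at -270.4 kb from the TMEM165 start, and rose from 88.5 ± 10.2 to 113.9 ± 14 CPM (log2 0.36, SE 0.08, edgeR adjusted p = 0.0137, 5 of 6 libraries above all controls). This call was lost without replicate 4 or 5 (adjusted p = 0.149 and 0.081). CEP135, a centriole protein and the nearest such gene beyond EXOC1, had 36.7 ± 2.63 against 35.9 ± 2.48 CPM (log2 0.03, edgeR adjusted p = 0.986). KIT, a receptor tyrosine kinase, was called in all 4 comparisons, with log2 fold changes of 0.71 in MEIS1-OE, 0.56 in MEIS2-OE, -0.33 in MEIS1-KO and -0.53 in MEIS2-KO (edgeR adjusted p = 5.57e-08, 3.61e-05, 0.0344 and 7.52e-05). The call in MEIS1-KO was lost without replicate 2, 3, 4, 5 or 6 and with only the groups compared.

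**Figure D2:**
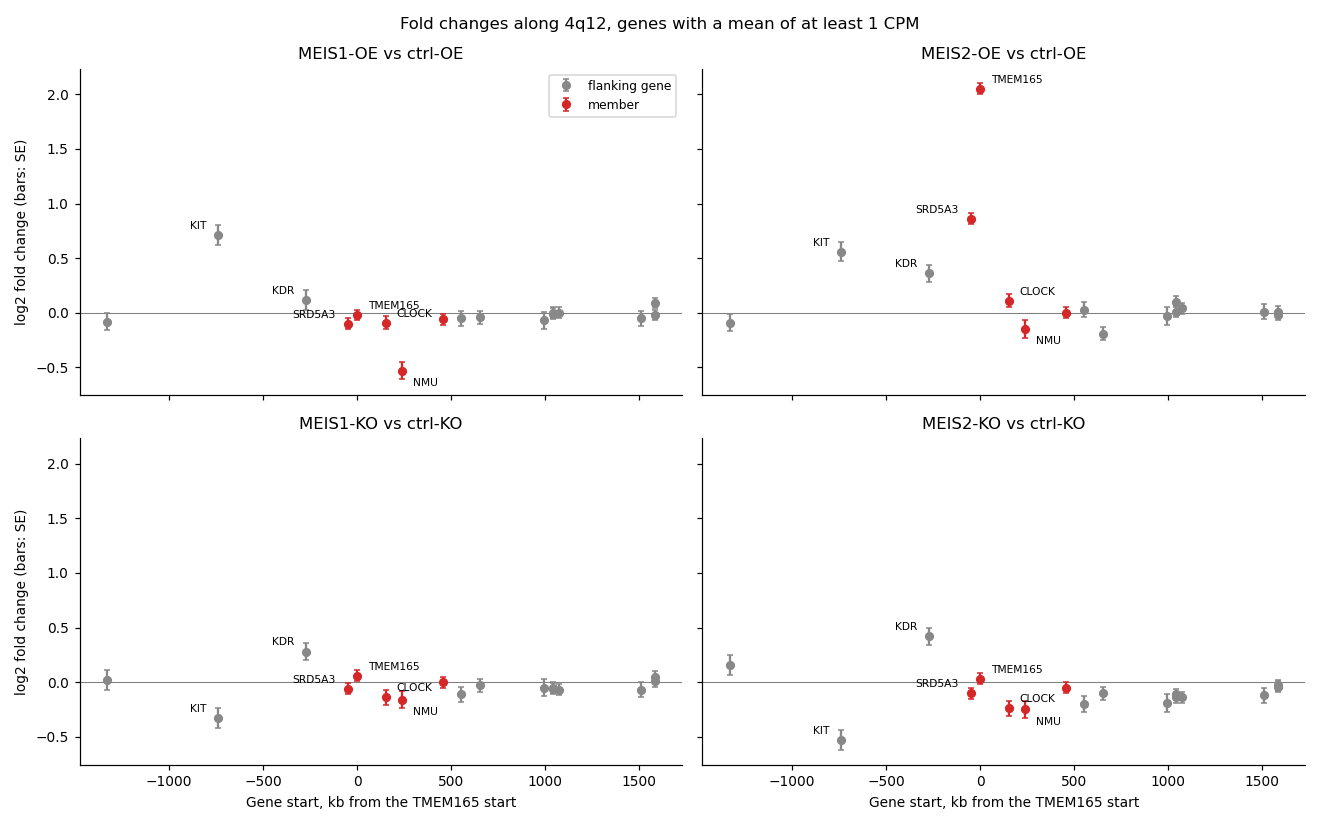
Log2 fold change with SE (y axis) against the distance of each gene's start from the TMEM165 start in kb (x axis), for the members and the flanking genes at 1 CPM or more, in the 4 comparisons with a matched control. TMEM165 at 2.05 and SRD5A3 at 0.86 stand above the other genes in MEIS2-OE, and the same positions lie near 0 in the other 3 comparisons.

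Of the 19 flanking genes, 1 was called in MEIS1-OE (higher) and 1 in MEIS1-KO (lower), both times KIT. Of all tested genes, 5.52% were called higher and 3.58% lower in MEIS1-OE, and 1.03% higher and 0.432% lower in MEIS1-KO. In MEIS2-OE 2 were called, KIT and KDR, both higher, where 1.07% of all tested genes were called higher and 0.279% lower. In MEIS2-KO 3 were called, where 4.04% of all tested genes were called higher and 5.98% lower. They were KIT, KDR (log2 0.42, SE 0.08, edgeR adjusted p = 0.00101) and IGFBP7, a secreted binding protein with 7 to 45 counts a library (log2 1.18, SE 0.23, edgeR adjusted p = 9.64e-04). KDR was thus higher both with activation and with knockout of MEIS2. In MEIS2-KO, 10 of the 12 flanking genes at 1 CPM or more had a log2 fold change below 0, with a median of -0.12. Over all tested genes, also those under 1 CPM, the median was -0.011. The share of all genes below 0 was not counted, so these values do not show a fall particular to this region. KIT alone was called lower. CEP135 was among the 10 at -0.20 (SE 0.07, edgeR adjusted p = 0.0574).

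Few of the pathway genes around each member were called. Of 126 listed pathway genes 123 were tested, and 4 were called in MEIS2-OE (3 higher, 1 lower), with a median log2 fold change of 0.00. Over all tested genes the shares in MEIS2-OE were 1.07% higher and 0.279% lower. Both are smaller than the shares in the lists, which rest on 3 genes and 1 gene. In MEIS1-OE 8 were called (5 higher, 3 lower), which in both directions is a smaller share than the 5.52% and 3.58% over all tested genes. In MEIS1-KO 1 was called (higher), where the background was 1.03% higher and 0.432% lower. In MEIS2-KO 10 were called (2 higher, 8 lower), a smaller share than the background of 4.04% higher and one near that of 5.98% lower. The number in MEIS2-OE fell to 2 or 3 without any 1 replicate number. In MEIS2-KO it was 3, 5, 6, 4 and 6 with replicate 1, 2, 4, 5 or 6 left out, in that order. In MEIS1-OE it was 5, 13, 5 and 4 with replicate 1, 3, 4 or 5 left out, and the 1 call in MEIS1-KO was lost when replicate 1, 3, 4, 5 or 6 was. All p-values for these lists come from edgeR.

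Among 41 genes for Golgi ions and glycosylation, the field of TMEM165, 2 were called in MEIS2-OE. MAN1A1, a Golgi mannosidase that trims N-glycans, rose from 13.7 ± 1.39 to 21.3 ± 1.87 CPM, with all 6 libraries above the controls (log2 0.64, SE 0.07, edgeR adjusted p = 6.21e-08). B4GALT1, a galactosyltransferase, rose by 0.20 (SE 0.05, edgeR adjusted p = 0.0341), a call that was lost when any 1 replicate number was left out (adjusted p = 0.0588 to 0.15) and with only the groups compared (0.0687). In MEIS1-OE 3 rose and 1 fell. B4GALT1 rose from 56.2 ± 3.23 to 79.8 ± 4.43 CPM (log2 0.51, SE 0.05, edgeR adjusted p = 1.09e-09), and ST6GAL1, which adds sialic acid, from 48.5 ± 3.42 to 67.0 ± 2.67 (log2 0.46, SE 0.05, edgeR adjusted p = 8.37e-09). COG6, a subunit of a Golgi tethering complex, fell by 0.20 on the log2 scale (SE 0.06, edgeR adjusted p = 0.022). That call was lost without replicate 1, 4 or 5. In MEIS1-KO 0 of 41 were called in edgeR, and in MEIS2-KO 2 fell, SLC11A2 and MAN2A2, both named after their values were seen. ATP2C1, the Golgi pump for the same ions as TMEM165, was 113.7 ± 7.29 CPM in MEIS2-OE and 109.8 ± 4.47 in ctrl-OE (log2 0.05, SE 0.05, edgeR adjusted p = 0.968). It was named for its role after its values were seen.

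Among 39 genes for dolichol and the N-glycan precursor, the field of SRD5A3, edgeR called 0 in MEIS2-OE, 0 in MEIS1-OE and 0 in MEIS1-KO. In MEIS2-KO 2 fell. STT3B, a catalytic subunit of the oligosaccharyltransferase, went from 201 ± 11.6 to 177 ± 6.30 CPM (log2 -0.18, SE 0.05, edgeR adjusted p = 0.0178), a call lost without replicate 1, 2 or 5. ALG8, a glucosyltransferase of the precursor, had a log2 fold change of -0.15 (SE 0.05, edgeR adjusted p = 0.0255), a call lost without replicate 1, 2, 5 or 6 and with RLE size factors.

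Among 25 circadian clock genes, the field of CLOCK, 24 were tested. In MEIS2-OE TEF, a PAR bZIP factor of the clock output, rose from 20.2 ± 1.82 to 29.3 ± 1.82 CPM, with all 6 libraries above the controls (log2 0.54, SE 0.07, edgeR adjusted p = 4.63e-07). In MEIS1-OE 2 rose and 1 fell: the repressor PER1 went from 46.8 ± 6.37 to 87.0 ± 15.8 CPM (log2 0.90, SE 0.12, edgeR adjusted p = 1.14e-06), and ARNTL2, a partner of CLOCK, had a log2 fold change of -0.28 (SE 0.06, edgeR adjusted p = 0.00153). The second that rose was CRY2, at 0.19. In MEIS1-KO 1 was called, BHLHE41, at 7 to 26 counts a library. In MEIS2-KO 3 of the 24 were called, all lower: PER3, NR1D2 and TIMELESS. Of all tested genes, 5.98% were called lower and 4.04% higher there. The median log2 fold change of the clock list was -0.04, and the number called ran from 2 to 5 over the alternatives. TIMELESS, a replication fork protein that shares its name with a fly clock gene, went from 296 ± 8.62 to 263 ± 9.79 CPM (log2 -0.17, SE 0.03, edgeR adjusted p = 0.00132). CRY2, BHLHE41, PER3 and NR1D2 were named after their values were seen.

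**Figure D3:**
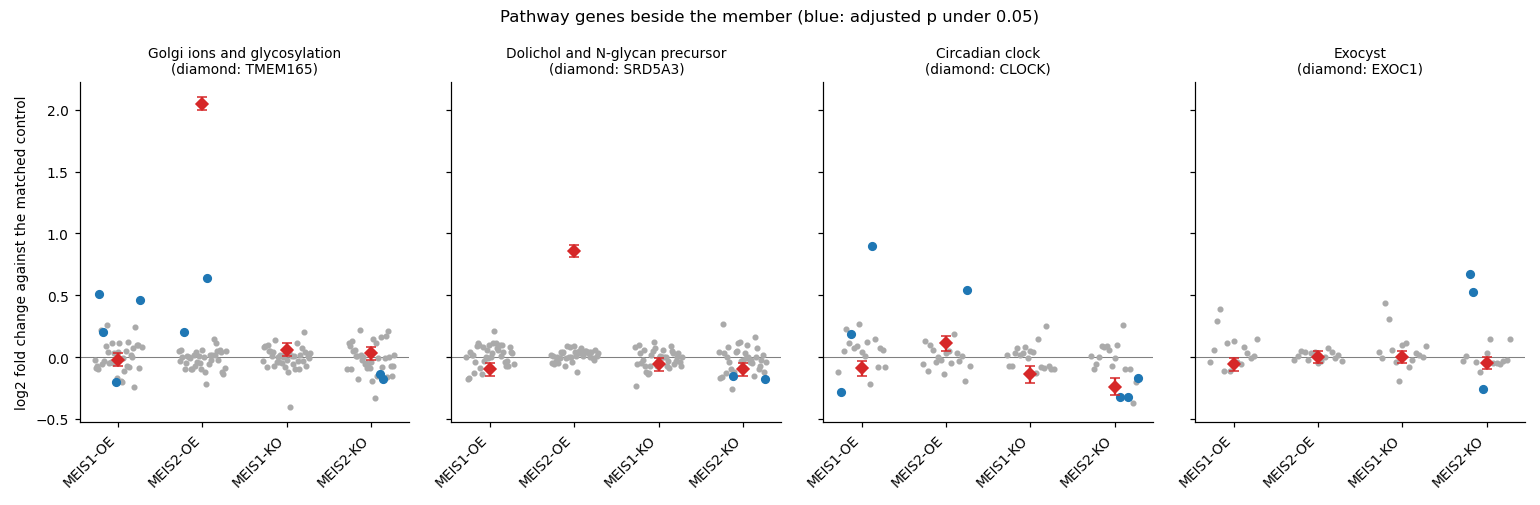
Log2 fold change against the matched control (y axis) of the pathway genes with a mean of at least 1 CPM in the groups compared, by list and condition (x axis). Grey points are genes that did not pass, blue points those with an adjusted p under 0.05 and red diamonds the member of that pathway with its SE; TMEM165 at 2.05 and SRD5A3 at 0.86 lie above all plotted genes of their lists in MEIS2-OE.

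NMU acts through the receptors NMUR1 and NMUR2. Of the 5 genes in the neuromedin list 3 were tested, and 1 was called, NMUR1 in MEIS1-OE, with 0.00827 ± 0.0202 CPM against 0.0978 ± 0.0760 and at most 5 counts in any library. The call was lost without replicate 5 or 6 (edgeR adjusted p = 0.158 and 0.0762) and with only the groups compared (0.0514), and the log2 fold change of NMUR1 ran from -4.09 to -0.87 over the alternatives. Among 16 exocyst genes and their small GTPases, the field of EXOC1, edgeR called 0 in MEIS1-OE, 0 in MEIS2-OE and 0 in MEIS1-KO. In MEIS2-KO 2 rose and 1 fell. EXOC3L1, a tissue-restricted relative of a core subunit, rose from 10.4 ± 1.29 to 16.5 ± 2.86 CPM (log2 0.67, SE 0.14, edgeR adjusted p = 0.00183), and EXOC3L2 from 9.49 ± 0.922 to 13.7 ± 2.13 (log2 0.53, SE 0.16, edgeR adjusted p = 0.0321). EXOC6, a core subunit, went from 39.8 ± 4.26 to 33.2 ± 1.69 (log2 -0.26, SE 0.07, edgeR adjusted p = 0.00919). The EXOC6 call was lost without replicate 1 or 2 and the EXOC3L2 call without replicate 1, 2, 4 or 5.

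A few genes on other chromosomes came closer to TMEM165, in pattern and size of change together, than its neighbour SRD5A3 did. Likeness was the root mean square difference of log2 CPM over the 36 libraries, with each gene centred on its own mean but not scaled. Small values thus mean alike patterns with changes of alike size, and a gene with a smaller rise ranks lower. Among 13463 other genes with a mean of at least 1 CPM, the 5 most like TMEM165 were RASSF8 (0.252), PTPRU (0.272), RASSF8-AS1 (0.405), EIF4E3 (0.421) and SRD5A3 (0.441), against a median of 0.786. RASSF8, on chromosome 12, had 60.3, 63.4 and 68.1 CPM in the lowest, median and highest ctrl-OE library, and 166.2, 199.9 and 215.9 in MEIS2-OE (log2 1.60, SE 0.07). PTPRU, a receptor tyrosine phosphatase gene on chromosome 1, had 12.9, 15.5 and 21.3 CPM in ctrl-OE and 49.3, 54.2 and 72.3 in MEIS2-OE (log2 1.86, SE 0.13). Unlike TMEM165, PTPRU also lay above its control in MEIS2-KO, with a log2 fold change of 0.45. EIF4E3, at a mean of 1.97 CPM in ctrl-OE, lay below its control there, at -0.43. RASSF8, RASSF8-AS1 and SRD5A3 had -0.15, -0.10 and -0.10 in MEIS2-KO. The genes were chosen for this pattern, so these are descriptions without a test.

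**Figure D4:**
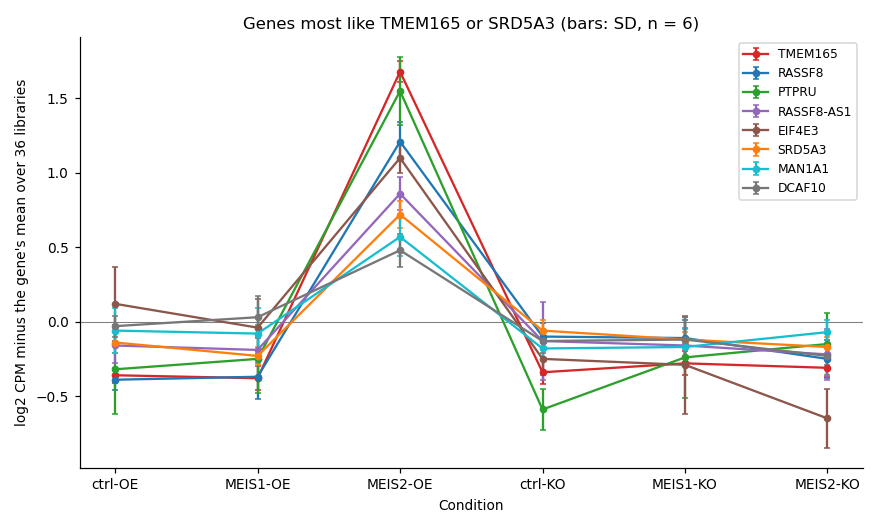
Log2 CPM minus the gene's own mean over the 36 libraries (y axis) by condition (x axis) for TMEM165, SRD5A3 and the genes most like them. Points are condition means, bars are SD (n = 6) and the lines join conditions for legibility; all 8 genes peak in MEIS2-OE.

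The 3 genes most like SRD5A3 were RASSF8-AS1 (0.156), MAN1A1 (0.17) and DCAF10 (0.189), against a median of 0.399. MAN1A1 is the Golgi mannosidase described with the glycosylation genes. At a mean of 1 CPM or more, 6 of 13464 genes had a larger log2 fold change in MEIS2-OE than TMEM165, and 36 had a larger one than SRD5A3.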

How the data were processed

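RNA was measured in 36 hNSC libraries, 6 in each of 6 conditions grouped by the treatment in the labels. Per the study's methods and design text, the authors sequenced stranded poly-A libraries (paired ends of 100 bases), aligned to hg19 with STAR 2.4.2a and deposited whole-number counts per gene from HTSeq 0.6.0. The submitters' processing notes instead name STAR 2.7.0a, with Trimmomatic 0.39. The annotation and the strand setting of the counting are not given in the sources used here. Counts of overlapping genes may therefore be split or lost.

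Genes with at least 10 counts over all libraries were fitted once over the 6 conditions with edgeR 4.0.16 (TMM, quasi-likelihood F test, two-sided, R 4.3.3), with Benjamini-Hochberg adjustment of p across the 19689 genes tested. A gene was called at an adjusted p under 0.05. SE is the absolute log2 fold change divided by the root of F, and intervals are 95% normal intervals from that SE. They widen for genes with few counts. The steps were checked on simulated counts. The alternatives were RLE size factors, filterByExpr, no filter, a prior count of 2 (members only), a fit restricted to the groups compared, DESeq2 1.42.0, a replicate block, and each replicate number removed in turn.

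Members and lists were chosen with earlier results of these data known. The text names the members, MEIS1 and MEIS2, called flanking genes and the nearest expressed ones, per list up to 4 called genes with the smallest p (or the 2 smallest where none was called), and the genes most alike in pattern. Any other gene is marked as named after its values were seen. A listed gene that the counts of calls include is not reported here by itself. Positions and sequences are from GRCh37 with GENCODE 44 lifted to it, which placed 16865 of the tested genes (85.7%). The flanking genes were drawn from placed genes only. Knockout guides and their candidate sites were read from the study's supplementary lists, sequences only. Matches of the activation guides were not analysed here.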

Additional observations from a re-analysis of the deposited data

Results flagged for a closer look

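In MEIS1-OE, 1 of the 6 NMU values stood apart: replicate 3 had 13.1 CPM (260 counts), and the other 5 libraries lay between 8.87 and 10.3. This was the 1 such value in 30 combinations of a member and a condition, and chance gives about 1 in 20. Without replicate 3 the fall of NMU in MEIS1-OE remained past the threshold.

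For 6 pathway genes, the levels in MEIS2-OE and MEIS1-OE differed in a direct comparison of the 2 conditions, which is also the difference of their effects because both share ctrl-OE. In log2, MEIS2-OE minus MEIS1-OE, the differences were 0.65 for MAN1A1 (SE 0.07, edgeR adjusted p = 8.56e-09), -0.56 for ST6GAL1 (SE 0.05, 9.68e-11), -0.31 for B4GALT1 (SE 0.05, 3.89e-05), 0.48 for TEF (SE 0.07, 1.32e-06), -0.87 for PER1 (SE 0.12, 2.09e-06) and 0.41 for ARNTL2 (SE 0.06, 4.37e-06). The genes had been named for a call in at least 1 of these conditions, so the differences are not independent of that choice.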

How the results depend on the processing

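The 35 log2 fold changes of the members kept their direction where called and their side of the threshold under all 13 alternatives, 455 values in all, and untested ones moved by less than the spread between replicates. TMEM165 in MEIS2-OE ranged from 2.03 to 2.07, SRD5A3 from 0.84 to 0.89, and NMU in MEIS1-OE from -0.66 to -0.48 (adjusted p 3.05e-08 to 0.00175). The counts of genes called around the members were less stable, and the causes were not tested. With only the groups compared, called pathway genes numbered 5 in MEIS1-OE, 2 in MEIS2-OE and 21 in MEIS2-KO, instead of 8, 4 and 10. With DESeq2, 2 flanking genes were called in MEIS1-KO instead of 1. Leaving out a replicate number gave 1 to 2 called flanking genes in MEIS2-OE (1 without replicate 4 or 5) and 0 to 1 in MEIS1-KO (0 without replicate 3, 4, 5 or 6). For pathway genes it gave 4 to 13 in MEIS1-OE (13 without replicate 3; 5, 5 and 4 without replicate 1, 4 and 5), 2 to 3 in MEIS2-OE, 0 to 1 in MEIS1-KO (1 only without replicate 2) and 3 to 13 in MEIS2-KO. Calls of the named list genes were kept in 250 values under the alternatives and lost in 35. Nothing in the labels pairs libraries with the same replicate number. The mean correlation of their deviations was 0.0993, against -0.021 for libraries with other numbers, and 46 of 90 pairs were above 0.1, so not every pair met the limit set for pairing. With the replicate number as a block, called pathway genes numbered 9, 4, 1 and 12 in MEIS1-OE, MEIS2-OE, MEIS1-KO and MEIS2-KO, and flanking genes 1, 2, 1 and 4. Depth limits the statements on NMUR1 and SRD5A3-AS1, each with 6 or fewer counts in the libraries compared.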
